A study of Arabidopsis thaliana with 2 samples.

Results

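The activator auxin response factors (ARFs) of Arabidopsis thaliana are ARF5 (AT1G19850, MONOPTEROS or MP), ARF6 (AT1G30330), ARF7 (AT5G20730, NPH4), ARF8 (AT5G37020) and ARF19 (AT1G19220). They were picked out by gene identifier, and all 5 were among the 20612 loci of the expression table. Poly(A) RNA was measured by strand-specific mRNA-Seq in 2 libraries from early globular embryos, a stage at which the embryo proper is a small ball of cells. One library came from embryos of the dcl1-5 strain, mutant in DICER-LIKE1 (DCL1), which processes precursor RNAs into mature microRNAs (miRNAs). The other came from embryos of the wild-type strain Col-0. Both were grown with long days, and each library was a pool of 30 embryos cut out by hand, so that differences between embryos of a pool cannot be seen. The labels used here do not say how dcl1-5 embryos were told from their siblings. Each genotype has 1 library, so the differences have no replicates behind them and no p-values. Brackets hold exact 95% intervals that cover counting error only and treat each read as independent. Reads of amplified RNA can copy the same molecule, so these intervals may be too narrow.

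ARFs are DNA-binding proteins that sit at auxin response elements in the promoters of auxin-regulated genes. The activators carry a glutamine-rich middle region that turns transcription on. Without auxin they are held inactive by Aux/IAA proteins, which bring the corepressor TOPLESS to the promoter. Auxin makes the TIR1/AFB receptors mark the Aux/IAA proteins for destruction, which frees the activators. In the embryo MP is known for its part in making the root, the hypocotyl and the vascular tissue. ARF7 and ARF19 are known from lateral root formation, and ARF6 and ARF8 from flower maturation. The transcripts of ARF6 and ARF8 are targets of miR167, and those of the other 3 activators are not.

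The mature miR167 sequences and the sites they pair with are shown because they are what separates ARF6 and ARF8 from the other members. The sequences were read from the RefSeq annotation and genome of TAIR10.1, 5′ to 3′, with the seed (bases 2 to 8) of each miRNA in capitals.
miR167a: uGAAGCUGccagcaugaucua
miR167b: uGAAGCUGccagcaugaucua
miR167d: uGAAGCUGccagcaugaucugg
miR167c: uAAGCUGCcagcaugaucuug
MIR167A, MIR167B and MIR167D share the seed GAAGCUG, and miR167a and miR167b are the same sequence. The 5′ form of miR167c has the seed AAGCUGC. The best-pairing sites to miR167a in ARF6, in ARF8 and in IAR3 (AT1G51760), the auxin amidohydrolase that is another known miR167 target, are given next. Positions were ranked by unpaired bases plus a smaller penalty for each G:U pair. Capitals mark bases that pair with miR167a by the Watson-Crick rule in an alignment without gaps.
ARF6 site: gAGAUCAgGCUGGCAGCUUgu
ARF8 site: UAGAUCAgGCUGGCAGCUUgu
IAR3 site: gAuccgAUaCUGGCAGCUUCA
The ARF6 site lies at chr1:10686478-10686498 on the minus strand, in coding sequence in exon 13 of 14, and 17 of its 21 bases pair with miR167a, 6 of the 7 facing the seed among them. The ARF8 site lies at chr5:14633841-14633861 on the plus strand, also coding and also in exon 13 of 14, with 18 of 21 bases paired and likewise 6 facing the seed. Counted from the 5′ end of the site, they differ by the single substitution G1U from ARF6 to ARF8. The IAR3 site, at chr1:19200652-19200672 on the plus strand in exon 3 of 5, pairs at 15 bases, with all 7 facing the seed. The same search over the transcripts of the other 20 ARFs found 5 to 7 unpaired bases at the best position, G:U pairs not counted as unpaired. In ARF5 the best position had 5, in ARF19 it had 5 and in ARF7 it had 7. A match of this kind is a description of the letters and not evidence of cutting.

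The 5 genes lie on chromosomes 1 and 5 of TAIR10.1. ARF5 is at chr1:6886669-6891404 on the plus strand, with 2709 bases of coding sequence. ARF6 is at chr1:10685822-10690988 on the minus strand, with 2808 coding bases. ARF8 is at chr5:14629453-14634454 on the plus strand, with 2436. ARF7 is at chr5:7016445-7022179 on the minus strand, with 3498. ARF19 is at chr1:6627683-6633133 on the minus strand, with 3261. Exact repeats were rare, since at most 0.488% of the 25-base words of a member's transcript (in ARF19) occur elsewhere in the genome. Near matches were not counted, although the mapping allowed 2 mismatches in the first 25 nt. ARF5 and ARF7 each overlap a neighbour on the opposite strand, which the stranded counting separates. ARF19 overlaps AT1G19210 by 6 bases on its own strand. Only the first overlapping neighbour of each member was recorded, so further overlaps were not examined. CAA and CAG, the glutamine codons, made up 6.98% of the codons of the whole coding sequence in ARF5, 8.75% in ARF8, 10.4% in ARF6, 12.5% in ARF19 and 15.3% in ARF7. The other 17 ARFs had between 2.24% and 6.12%, so each of the 5 activators lay above each of them.

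DCL1 (AT1G01040) had 3 reads, or 0.665 RPM [0.137 to 1.94], in dcl1-5 embryos and 26 reads, or 4.63 RPM [3.03 to 6.79], in wild-type embryos. RPM scale the reads of each gene to the genome-matching reads, of which there were 4513588 in the dcl1-5 library and 5611643 in the wild-type library. The known embryo genes were read in both libraries. PDF1, an epidermal marker, had 3106 and LEC1, a regulator of embryo identity, 287 RPM in dcl1-5 embryos, against 4215 and 251 RPM in wild-type embryos. The early apical marker WOX2 had 15.1 RPM in dcl1-5 and 13.5 RPM in wild-type embryos.

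ARF5/MP was the activator with the highest level in wild-type embryos, and ARF8 was the highest in dcl1-5 embryos. ARF5 had 423 reads, or 93.7 RPM [85.0 to 103], in dcl1-5 embryos and 581 reads, or 103.5 RPM [95.3 to 112], in wild-type embryos, and these intervals overlap. ARF8 had 610 reads, or 135 RPM [125 to 146], in dcl1-5 embryos and 280 reads, or 49.9 RPM [44.2 to 56.1], in wild-type embryos. ARF6 had 336 reads, or 74.4 RPM [66.7 to 82.8], in dcl1-5 embryos and 188 reads, or 33.5 RPM [28.9 to 38.6], in wild-type embryos. For both of these miR167 targets the intervals of the libraries lay far apart, with dcl1-5 the higher. ARF7, which has no miR167 site, was a fainter gene with the same direction, at 95 reads or 21.0 RPM [17.0 to 25.7] in dcl1-5 embryos and 42 reads or 7.48 RPM [5.39 to 10.1] in wild-type embryos. ARF19, the closest relative of ARF7, had 1 read in dcl1-5 embryos and 3 reads in wild-type embryos. That is at or under the floor of 3 reads in both libraries, or 0.665 RPM in dcl1-5 and 0.535 RPM in wild type, so no difference in ARF19 was detectable at this depth. The close pair of activators was therefore unequal, with ARF7 measured in both libraries and ARF19 near 0 in both. In these bulk samples, fewer cells that express a gene and less of its RNA in each cell cannot be told apart.

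**Figure D1:**
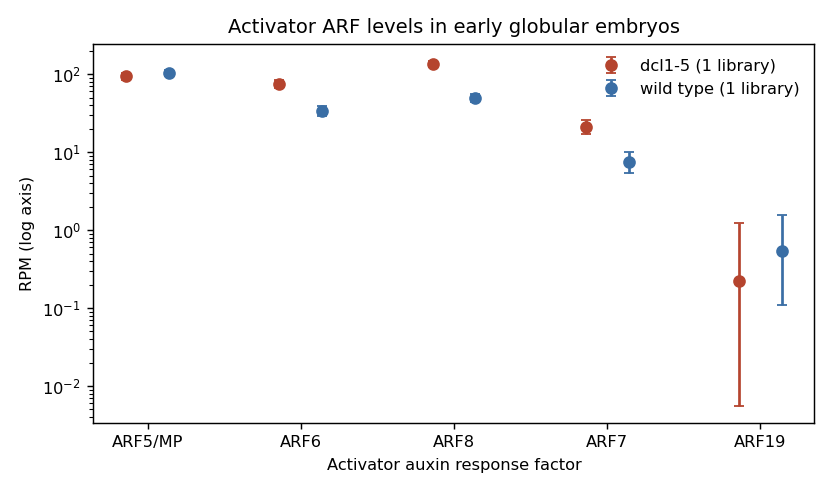
Level of each activator ARF in RPM on a log axis, with dcl1-5 left of wild type. Points are single libraries and bars are exact Poisson 95% intervals. ARF6, ARF8 and ARF7 sit higher in dcl1-5, ARF5/MP overlaps between the libraries, and ARF19 is at 1 read in dcl1-5 and 3 reads in wild type.

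Levels of different genes are compared per kilobase of coding sequence. In dcl1-5 embryos the order was ARF8 at 55.5 RPM per kb [51.2 to 60.1], ARF5 at 34.6 [31.4 to 38.1], ARF6 at 26.5 [23.8 to 29.5], ARF7 at 6.02 [4.87 to 7.36] and ARF19 at 0.0679 [0.00172 to 0.379]. In wild-type embryos it was ARF5 at 38.2 RPM per kb [35.2 to 41.5], ARF8 at 20.5 [18.2 to 23.0], ARF6 at 11.9 [10.3 to 13.8], ARF7 at 2.14 [1.54 to 2.89] and ARF19 at 0.164 [0.0338 to 0.479]. No neighbours in either order had overlapping intervals, and the order was the same per kilobase of transcript or with no length scaling. ARF5 and ARF8 thus exchanged places between the libraries while the lower 3 kept theirs. Among all 20612 loci ARF5 stood above 92.5% of loci in dcl1-5 and 94.6% in wild type, and ARF7 above 74.0% in dcl1-5 and 65.0% in wild type.

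The make-up of the activator reads differed between the libraries, and this does not depend on how the libraries are scaled to each other. ARF5 held 28.9% [26.6 to 31.3] of the 1465 activator reads in dcl1-5 embryos and 53.1% [50.1 to 56.1] of the 1094 in wild-type embryos. ARF8 held 41.6% [39.1 to 44.2] in dcl1-5 and 25.6% [23.0 to 28.3] in wild type, and ARF6 held 22.9% [20.8 to 25.2] in dcl1-5 and 17.2% [15.0 to 19.6] in wild type. Together the miR167 targets held 64.6% [62.1 to 67.0] of the activator reads in dcl1-5 embryos and 42.8% [39.8 to 45.8] in wild-type embryos. ARF7 held 6.48% [5.28 to 7.87] in dcl1-5 and 3.84% [2.78 to 5.15] in wild type. In wild-type embryos MP alone thus supplied the larger part of the activator reads, and in dcl1-5 embryos ARF6 and ARF8 did.

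**Figure D2:**
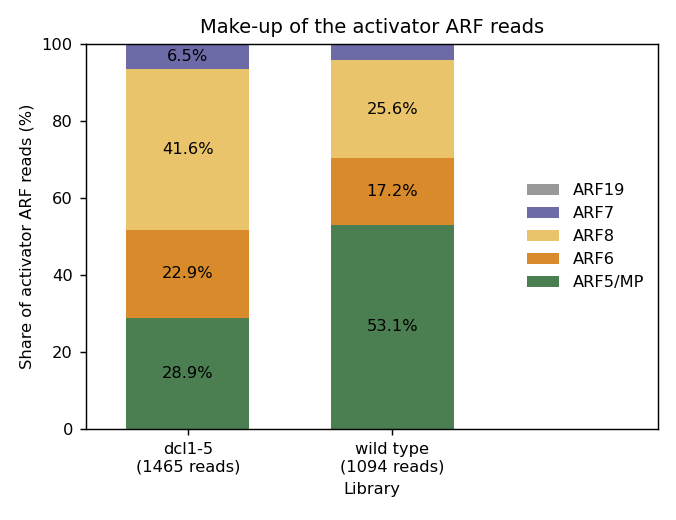
Share of the reads of the 5 activator ARFs held by each member, in percent, in dcl1-5 (left) and wild type (right). ARF5/MP takes 28.9% in dcl1-5 and 53.1% in wild type, ARF7 takes 6.48% in dcl1-5 and 3.84% in wild type, and the share of ARF19 is too small to see.

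Of the 4 activators whose mean over both libraries reached 5 RPM, 3 were at least 2-fold higher in dcl1-5 on the log2(RPM + 1) scale, and none was at least 2-fold lower. Among all 10240 genes with that mean the shares were 33.8% for higher and 4.58% for lower. ARF8 was 2.71-fold higher [2.35 to 3.13], a log2 ratio of 1.42. ARF7 was 2.81-fold higher [1.94 to 4.15], a log2 ratio of 1.38, and ARF6 was 2.22-fold higher [1.85 to 2.67], a log2 ratio of 1.13. ARF5 had a ratio of 0.905 [0.797 to 1.03], a log2 ratio of -0.14, and its interval includes equality. The filter leaves out ARF19. These ratios have to be read against a shift of the whole library, because the median log2 ratio of the tested genes was itself 0.63. ARF8 lay above 80.2% of the tested genes, ARF7 above 79.1% and ARF6 above 70.6%, whereas ARF5 lay above 20.4%.

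The count of 3 depended on the scaling. With median-of-ratios scaling, which moved the median of the tested genes by -0.45, and with TMM scaling, which moved it by -0.63, no activator was at least 2-fold higher or lower. ARF8 was then at 0.94 and 0.75, ARF7 at 0.92 and 0.75, and ARF6 at 0.66 and 0.47, all still positive. ARF5 was at -0.62 and -0.80, further below 0 than with the authors' scaling, under which it lay 0.77 below the median of all tested genes. Low genes carried more of the shift than abundant ones, so each member was also set beside the genes of its own bin when the tested genes were cut into 10 equal bins by mean RPM. ARF8 was 0.98 above the median log2 ratio of its bin, ARF7 was 0.59 above and ARF6 0.58 above, and ARF5 was 0.58 below.

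**Figure D3:**
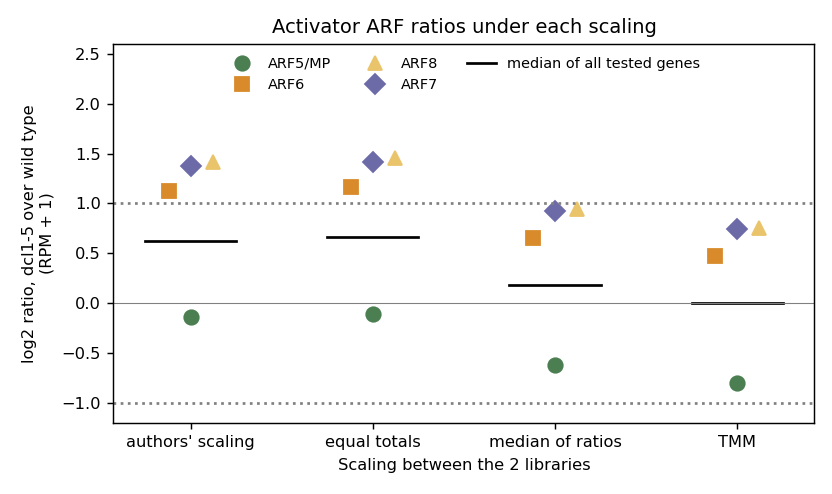
log2 ratio of dcl1-5 over wild type (RPM + 1) for the 4 measured activators under 4 scalings, with black bars for the median of all tested genes and dotted lines at 2-fold. ARF6, ARF7 and ARF8 stay above the black bar and ARF5/MP stays below it under each of the 4 scalings, and no member reaches 2-fold with median-of-ratios or TMM scaling.

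Ratios between members are free of the scaling, and they show which member stood apart. The summed reads of ARF6 and ARF8 were 1.82 times those of ARF5, ARF7 and ARF19 in dcl1-5 embryos and 0.748 times in wild-type embryos. The ratio between these was 2.44 [2.07 to 2.87]. It rested on ARF5: with ARF5 left out it was 0.948, on the other side of 1, and against ARF7 alone it was 0.894 [0.596 to 1.32], an interval that includes equality and reaches 1.68 times in favour of ARF7. Without any other single member it stayed between 2.16 and 2.78. Of the 10 pairs of members, 3 had an interval that leaves out 1, and each of these 3 set ARF5 against another member. ARF7 over ARF5 differed 3.11-fold [2.09 to 4.68] between the libraries, ARF8 over ARF5 2.99-fold [2.47 to 3.63] and ARF6 over ARF5 2.45-fold [1.96 to 3.07]. The ratio of ARF8 to ARF6 was 1.82 in dcl1-5 and 1.49 in wild type, a difference of 1.22-fold [0.964 to 1.54]. The 4 pairs with ARF19 had too few reads to show any difference. In these read ratios the miR167 targets and ARF7, which is not a target, were thus not told apart. All 3 differed from ARF5, which is not a target either. The ratios do not take out the part of the library shift that runs with level. The median log2 ratio was 0.79 in the bin of ARF7, 0.55 in that of ARF6 and 0.44 in that of ARF5 and ARF8.

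**Figure D4:**
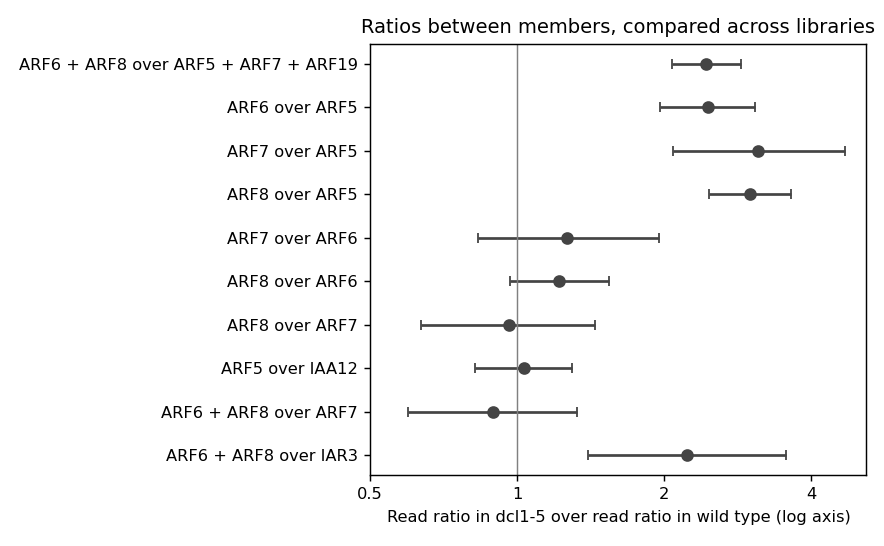
Ratio of reads between members or groups of members in dcl1-5, divided by the same ratio in wild type, on a log axis with conditional 95% intervals. The comparisons that set ARF6, ARF7 or ARF8 against ARF5 lie right of 1, those among ARF6, ARF7 and ARF8 include 1, and so does ARF5 over IAA12. ARF5 over IAA13, whose interval leaves out 1, is not drawn.

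The precursor side of the miR167 pathway was measured at MIR167A, whose poly(A) primary transcript had 150 reads, or 33.2 RPM [28.1 to 39.0], in dcl1-5 embryos and 7 reads, or 1.25 RPM [0.502 to 2.57], in wild-type embryos. Its ratio was 26.6 [12.6 to 67.4]. MIR167B had 3 reads in dcl1-5 and 0 in wild type, and MIR167D had 0 in dcl1-5 and 1 in wild type, so neither showed a difference at this depth. MIR167C was not among the loci of the expression table. The mature miRNAs were not measured in these libraries. IAR3, with the third site shown above, had 8.86 RPM [6.33 to 12.1] in dcl1-5 and 7.84 RPM [5.70 to 10.5] in wild type, a ratio of 1.13 [0.718 to 1.78] that includes equality. Relative to IAR3, the reads of ARF6 and ARF8 were 2.22 times more abundant in dcl1-5 than in wild type [1.39 to 3.55]. This comparison, like that of ARF6 and ARF8 with ARF7 alone, was added to the planned ones, and its interval tests nothing.

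The other ARFs, most of which act as repressors, bind the same kind of DNA element as the activators. Of 17 listed, 13 were in the table and 7 reached a mean of 5 RPM. Of these 7, 2 were at least 2-fold higher, 1 was at least 2-fold lower and 4 were neither. Over all tested genes 33.8% were higher and 4.58% lower. The median log2 ratio of the 7 was 0.82, beside 1.25 for the activators and 0.63 for all genes. ARF17 and ARF10, both miR160 targets, had 36.8 and 37.4 RPM in dcl1-5, against 2.67 and 6.06 RPM in wild type. Their summed reads differed 3.38 times more than those of ARF6 and ARF8 [2.44 to 4.76]. Both were named for having large log2 ratios in their list, so this larger difference came with the choice. The comparison was chosen after the values were seen, and its interval tests nothing. ARF3 (ETTIN), a target of trans-acting siRNAs, was the 1 lower gene, with 70.2 RPM [62.7 to 78.4] in dcl1-5 and 191 RPM [179 to 202] in wild type. The ARFs counted here as small RNA targets also included ARF2, ARF4 and ARF16, and such targets did not all differ in 1 direction. ARF2 was 1.88-fold higher [1.65 to 2.15] and ARF4 1.22-fold [0.923 to 1.61]. ARF16, under a mean of 5 RPM, had 19 reads in dcl1-5 and 26 in wild type, a ratio of 0.909 [0.475 to 1.71]. Among the 18 ARFs in the table, ARF8 ranked 1 by RPM in dcl1-5 and 4 in wild type, while ARF5 ranked 3 in dcl1-5 and 2 in wild type. The 5 activators held 45.2% [43.4 to 46.9] of all ARF reads in dcl1-5 embryos and 35.6% [33.9 to 37.3] in wild-type embryos. A single gene set this direction: without ARF3 the activators held 50.1% [48.2 to 51.9] in dcl1-5 and 54.7% [52.5 to 56.9] in wild type. Among ARFs that are not targets of small RNAs, 3 activators and 7 others, the activators held 55.4% [52.2 to 58.7] in dcl1-5 and 64.9% [61.8 to 68.0] in wild type.

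The Aux/IAA inhibitors, which bind the activators directly, had 7 of 15 measured members at least 2-fold higher, 0 lower and a median log2 ratio of 0.96, where 33.8% of all tested genes were higher. Net of the median of all genes the rule counted 3 of the 15 as higher and 0 as lower, while over all tested genes the net shares were 14.6% higher and 14.4% lower. IAA12 (BODENLOS), the inhibitor that partners MP in the embryo, had 43.9 RPM in dcl1-5 and 49.9 RPM in wild type. MP had 2.14 reads for each read of IAA12 in dcl1-5 embryos and 2.08 in wild-type embryos, a difference of 1.03-fold [0.821 to 1.29], so the proportion of this pair was close to equal in the libraries. The related IAA13 had 58.5 RPM in dcl1-5 and 30.5 RPM in wild type. MP had 1.60 reads for each read of IAA13 in dcl1-5 and 3.398 in wild type. That is a ratio of 0.472 between the libraries [0.372 to 0.597], an interval that leaves out equality. These proportions with IAA12 and IAA13 were chosen after the values were seen. The largest absolute log2 ratios of the 15 measured members were those of IAA1, with 52 reads in dcl1-5 and 1 in wild type, IAA19, 3.86-fold higher [2.65 to 5.76], and IAA16, 3.79-fold higher [2.31 to 6.44].

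The auxin receptors of the TIR1/AFB family had no measured member at least 2-fold higher or lower among 4, with a median of 0.23 that was -0.24 with median-of-ratios and -0.42 with TMM scaling. AFB2 had 19.3 RPM in dcl1-5 and 35.8 RPM in wild type. With median-of-ratios scaling, with TMM scaling and net of the median of all genes 1 of the 4 was at least 2-fold lower, and net of the median that was AFB2, at -1.49. AFB5 had 44.5, TIR1 37.0 and AFB3 26.1 RPM in dcl1-5, against 36.9, 29.6 and 22.8 RPM in wild type. Of the 5 TOPLESS corepressors 1 was at least 2-fold higher and 0 lower, with a median of 0.67. TPR3 was that member, with 56.5 RPM in dcl1-5 and 7.84 RPM in wild type, and TPL itself had 79.5 RPM in dcl1-5 and 53.8 RPM in wild type. TPR4, TPR1 and TPR2 were 1.72-fold, 1.61-fold and 1.48-fold higher. For the receptors and the corepressors alike, the shares over all tested genes were 33.8% higher and 4.58% lower, with a median of 0.63. Net of the median these shares were 14.6% and 14.4%.

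Known downstream genes of MP were split. Of 5 measured, 3 were at least 2-fold lower, 1 was at least 2-fold higher and 1 was neither, with a median log2 ratio of -3.21. Over all tested genes 4.58% were lower and 33.8% higher. TMO6, a Dof-type transcription factor, had 0 reads in dcl1-5 embryos and 167 in wild-type embryos. The exact lower bound of the fold by which TMO6 was lower in dcl1-5 is 36.0. Its wild-type level was 44.8 times the floor of 3 reads in the dcl1-5 library, which is not a lower bound. TMO3 had 9 reads in dcl1-5 and 208 in wild type, and DRN, an AP2-type factor of the embryo apex, had 9 in dcl1-5 and 150 in wild type. In contrast, TMO5, which takes part in vascular initiation, had 15.7 RPM in dcl1-5 and 8.73 RPM in wild type. ATHB-8, an MP target that miR165 and miR166 also regulate, had 22.8 RPM in dcl1-5 and 2.49 RPM in wild type. None of these 5 genes had a mean of at least 20 RPM.

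Downstream genes known from ARF7 and ARF19 in lateral roots were barely read. Of the 5 listed, LBD16 had 2 reads in dcl1-5 and 3 in wild type and LBD18 had 17 in dcl1-5 and 6 in wild type, and neither reached a mean of 5 RPM. The GH3 auxin-conjugating enzymes, which ARF activators induce in other tissues, had 2 of 4 measured members at least 2-fold higher and 1 lower, with a median of 1.14, beside 33.8% higher and 4.58% lower over all tested genes. The count of higher members was 1 with TMM scaling and net of the median, and 0 at a mean of at least 20 RPM. GH3.5 had 65 reads in dcl1-5 and 2 in wild type, GH3.3 was 3.07-fold higher [1.98 to 4.86], and GH3.2 had 24.1 RPM in dcl1-5 and 56.5 RPM in wild type. Over all 7 pathway lists outside the activators, 13 of 40 measured genes were higher by this rule, a share near the 33.8% of all tested genes, and 5 were lower. Net of the median of all genes 8 were higher and 6 lower, beside 14.6% and 14.4% of all tested genes.

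**Figure D5:**
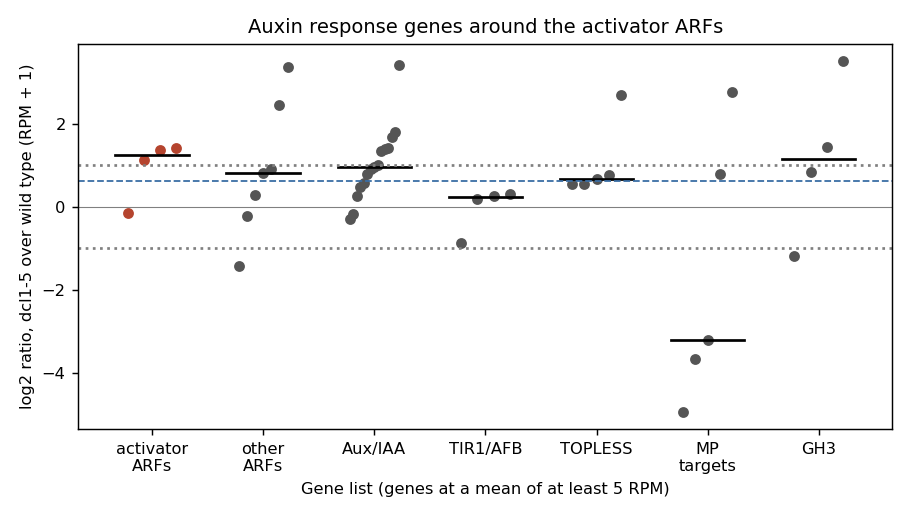
log2 ratio of dcl1-5 over wild type (RPM + 1) for each gene at a mean of at least 5 RPM, by list, with black bars for list medians, a dashed line at the median of all tested genes and dotted lines at 2-fold. The activators (left) hold 3 genes above 2-fold and ARF5 near 0, and the MP targets are split between 3 far below and 1 far above.

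Markers of tissues around the embryo differed between the libraries as well. The 13 seed coat markers summed to 2214 RPM in dcl1-5 and 1322 RPM in wild type, with 4 of 8 measured members at least 2-fold higher, 0 lower and none at 0 in either library, beside 33.8% higher and 4.58% lower over all tested genes. In RPM 12 of the 13 were above wild type, and so were 14150 of all 20612 loci. Net of the median of all genes 3 of the 8 measured members were higher and 0 lower. Over all tested genes these net shares were 14.6% and 14.4%. GL2, BAN and TT1 had 17.5, 125 and 8.42 RPM in dcl1-5, against 3.74, 32.6 and 1.60 RPM in wild type. The 8 endosperm markers in the table summed to 61.8 RPM in dcl1-5 and 32.97 RPM in wild type, with 1 of 3 measured members at least 2-fold higher, FIS2, at 11.7 RPM in dcl1-5 and 0.535 RPM in wild type. FWA and SUC5 had 27.0 and 17.9 RPM in dcl1-5, against 13.5 and 10.7 RPM in wild type. The endosperm list did not run 1 way: in RPM 4 of the 8 were above wild type and 4 below. The lower members were faint, namely AGL62, MEA, EDE1 and ZOU with 1, 6, 11 and 1 reads in dcl1-5, against 9, 15, 16 and 3 reads in wild type. Of the 6 embryo markers 2 were at least 2-fold higher and 0 lower. The higher ones were WOX8 and WOX9, with 16.2 and 29.9 RPM in dcl1-5, against 4.28 and 8.91 RPM in wild type. Net of the median of all genes 2 of the 6 were higher and 1 was lower, PDF1, at -1.07. ATML1, an epidermal factor, had 284 RPM in dcl1-5 and 196 RPM in wild type. The part of these tissues in the ARF values was not tested. The 100 most abundant loci took 24.4% of genome-matching reads in dcl1-5 and 35.8% in wild type.

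The genes nearest to each activator in level over both libraries, by distance on the log2(RPM + 1) scale, were not other ARFs. Those nearest to ARF5 were AT2G31090 and AT1G26740, at distances of 0.032 and 0.036. DJ1A and CCP2 were nearest to ARF6, at 0.0086 and 0.031, G6PD6 and AT3G29130 to ARF7, at 0.014 and 0.030, and EMB3119 and AT5G55180 to ARF8, at 0.026 and 0.072. With only 2 libraries such neighbours are many, with 25 genes within a distance of 0.1 of ARF7, 9 of ARF6, 7 of ARF5 and 3 of ARF8. No gene at a mean of at least 5 RPM lay near ARF19, the closest being at 2.80.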

How the data were processed

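Per the series' design text, the authors mapped adaptor-trimmed reads with Bowtie to TAIR9 (at most 2 mismatches in the first 25 nt), kept unique matches, and counted reads antisense to genes because the amplified RNA (2 rounds) is antisense. No version of Bowtie is named in the sources used here. Per the file headers, the deposited RPM are relative to all reads of a library that matched the genome. Dividing by the value of 1 read gave whole numbers (tolerance 0.01) for 100% of loci, which recovered the reads. An exact binomial test on them with Benjamini-Hochberg adjustment at 0.05 called 7368 of 10240 genes, and it compares these 2 libraries, not the genotypes.

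Ratios are on the log2(RPM + 1) scale, dcl1-5 over wild type, on which changes of low genes are understated, and folds are plain RPM ratios. Genes needed a mean of at least 5 RPM, and 2-fold was counted. Intervals at 95% are Poisson for levels, Clopper-Pearson for shares and folds, and conditional for ratios of ratios. Amplification from poly(A) favours 3′ ends, so values per kilobase are approximate. The members and lists were chosen with earlier results of these data known. Named genes were the members, the MIR167 genes, IAR3, DCL1, and the 3 largest absolute log2 ratios of each other list (all of a list of 6 or fewer). Others named with values (ARF2, ARF4, ARF16, IAA12, IAA13, LBD16, LBD18, TMO5, ATHB-8, AGL62, MEA, EDE1 and ZOU) were chosen after these were seen. The 118 listed genes were all found in the RefSeq annotation of TAIR10.1, used for names, lengths and sequences, and 102 were in the table. A further gene of the MP target list is not reported here, irrespective of its value; counts and medians leave it out, which bears most on that list's median. TAIR10.1 is not the authors' TAIR9 annotation, and the table has no coordinates. Alternatives were other pseudocounts, filters, scalings and thresholds. Python 3.11.15, numpy 2.4.6, pandas 2.3.3, scipy 1.17.1, biopython 1.88 and edgeR 4.0.16 (TMM, in R 4.3.3) were used, and calculations were tested on simulated data.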

Additional observations from a re-analysis of the deposited data

How the results depend on the processing

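With median-of-ratios scaling the log2 ratios of ARF5, ARF6 and ARF8 were -0.62, 0.66 and 0.94, and with TMM scaling those of ARF5, ARF6, ARF7 and ARF8 were -0.80, 0.47, 0.75 and 0.75. Net of the median of all genes, a step added after seeing the data, they were -0.77, 0.50, 0.75 and 0.79. Each of these 3 settings left 0 activators at least 2-fold higher, and so did a 4-fold threshold. The median of the activators was 0.79, 0.61 and 0.63 in these 3 settings, and that of the pathway lists 0.32, 0.13 and 0.15. The count of pathway genes at least 2-fold higher was 8 with TMM scaling and 8 net of the median. At a mean of at least 20 RPM, where fewer genes are tested, it was 4, with 2 lower. The median of the TIR1/AFB receptors turned to -0.24, -0.42 and -0.40 in the same 3 settings. At 20 RPM the median of the GH3 genes turned to -0.18, and no MP target was left. The ratio of ratios of the miR167 targets against the other 3 activators was 1.96 from the mean of single log2 ratios, and between 0.948 (without ARF5) and 2.78 when 1 member was left out. The difference in the activator share of ARF reads, dcl1-5 minus wild type, was -9.49 percentage points without small RNA targets and -4.62 points without ARF3, where it was 9.54 with all ARFs; leaving out ARF3 was chosen after seeing the data. The cause of these changes was not tested. The pseudocounts and equal totals moved no activator value beyond its counting interval. No paired analysis was possible because each genotype has 1 library. ARF19, MIR167B and MIR167D are limited by depth.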

Other observations

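The auxin response element TGTCTC, searched on both strands as these 6 letters, was found in none of the 5 activator promoters in a window of 300 bases, from 250 bases before to 50 after the gene start in TAIR10.1. The same window of 27443 protein-coding genes held it in 14.2% of cases. No match says only that these letters are not in this window.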
